A study of Drosophila melanogaster with 19 samples.

Results

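Embryos held in an artificially long interphase 12 were compared with unmanipulated embryos late in interphase 14, gene by gene. The arrested condition, C12-70min, consisted of embryos injected with double-stranded RNA against CycA, CycB and CycB3 and collected 70 minutes after mitosis 11. The control condition, C14L, consisted of uninjected embryos about 70 minutes into cycle 14. Both carried the H2AvD-RFP histone reporter, which marks nuclei, and both interphases had thus lasted about as long when RNA was taken, although the control embryos had passed through mitoses 12 and 13 and were older. Polyadenylated RNA was sequenced from 1 embryo at a time. The comparison takes 4 of the 19 embryos of the series, 2 in each condition, and all 17735 genes of the deposited table, with no gene chosen by its value. Arrest, the number of nuclei and DNA content of the embryo, injection, double-stranded RNA and chronological age all differed between the conditions. Their parts in any difference cannot be told apart. The other 6 conditions (control C12, C13 and C14E, and arrested C12-15min, C12-30min and C12-50min) are used below to show the course of a gene.

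The early fly embryo runs through rapid synchronous nuclear cycles on RNA supplied by the mother. At the mid-blastula transition the cycle slows, much of the maternal RNA is cleared, zygotic transcription rises, and membranes grow down between the nuclei to form cells. Late in interphase 14 the first genes of cellularisation are switched off again, germ layers and segments are specified by cascades of transcription factors, and gastrulation begins. Mitosis 14 is entered region by region once the phosphatase String (stg) has been transcribed.

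Each deposited value is the log2 of a condition's mean CPM over its embryos, plus 1, where CPM scales a gene's reads to a fixed library size. The control C12 column, for which the labels list 3 embryos, was solved in full as a mean of 2, after the removal of an outlying C12 embryo that the study describes. A difference below is C12-70min minus C14L on this log2 scale, so it is positive where the arrested embryos were higher, and it understates the change of genes near 1 CPM. The smallest steps of the 2-embryo columns returned the reads of each embryo. The C14L embryos had 54110212 and 41693085 assigned reads, and the C12-70min embryos 52804462 and 45152010. Values of single embryos are given in that order, the deeper first, and where 2 pairs are set apart by "against" with no condition named, the arrested embryos come first. A single pair of whole read numbers was found for 93.0% of the genes at 10 CPM or more in C14L and for 64.2% of those in C12-70min. Where several pairs remained, the lowest and highest embryo value over all of them is given as a range. Between the embryos of a condition, genes of 10 to 100 CPM differed by a median of 0.21 on the log2 scale in C14L and 0.30 in C12-70min, and 48 of 3690 and 172 of 2897 genes differed by more than 2-fold. Of 21 markers of differentiated muscle, nerve, fat body, blood, cuticle and ovary, 3 reached 10 CPM in either condition, namely elav, Hml and bam. The muscle myosin gene Mhc was at 0.582 CPM in C14L and 0.648 CPM in C12-70min.

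More genes were lower in the arrested embryos than higher. By a fold above 1.5 between condition means, 2124 genes (12% of 17735) were higher in C12-70min and 3796 (21.4%) were lower. The balance depends on genes of low level, since a pseudocount of 0.001 in place of 1 gave 5028 higher and 5669 lower. A total of 3995 genes were listed at 0 in both conditions. Of 5912 genes that reached 10 CPM in 1 or both of the conditions, 1404 were higher (23.7%), 2851 were lower (48.2%) and 1657 lay within 1.5-fold, with a median difference of -0.48. The 4313 genes that reached 10 CPM in both had a median of -0.11. CPM is relative to the reads of each library, so neither this median nor any level here measures RNA per embryo. In every whole-read solution, the embryos of the conditions did not overlap for 1242 of the 1374 higher genes that could be solved and for 2737 of the 2823 lower ones. These genes had been picked by the fold between the means of the same embryos, which favours that outcome. Over all 17530 genes solved, with no minimum of level or fold, the arrested embryos lay above both control embryos for 19.6% and below both for 28%.

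A limma test on the 2 embryos of each condition could be fitted for 6492 genes that reached 1 CPM in 1 or both conditions. It called 1094 genes higher (16.9%) and 3294 lower (50.7%) at an adjusted p under 0.05. The higher calls fell to 633 without the deeper C14L embryo, to 677 without the other, and to 593 with no minimum level, where 2053 were lower. The 1689 genes left out had no single solution in 1 or both conditions and were mostly abundant in the arrested embryos. At 10 CPM or more in 1 or both conditions, the genes left out had a median of 238 CPM in C12-70min, against 19.1 CPM for those fitted. The share of higher calls therefore rests on a gene set that lacks many abundant arrested transcripts. Centring the embryos on the median of the fitted genes alone gave 2111 higher and 2088 lower calls in place of 1094 and 3294. The labels do not say whether the embryos came from separate collections, so p-values measure the spread between these embryos.

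**Figure D1:**
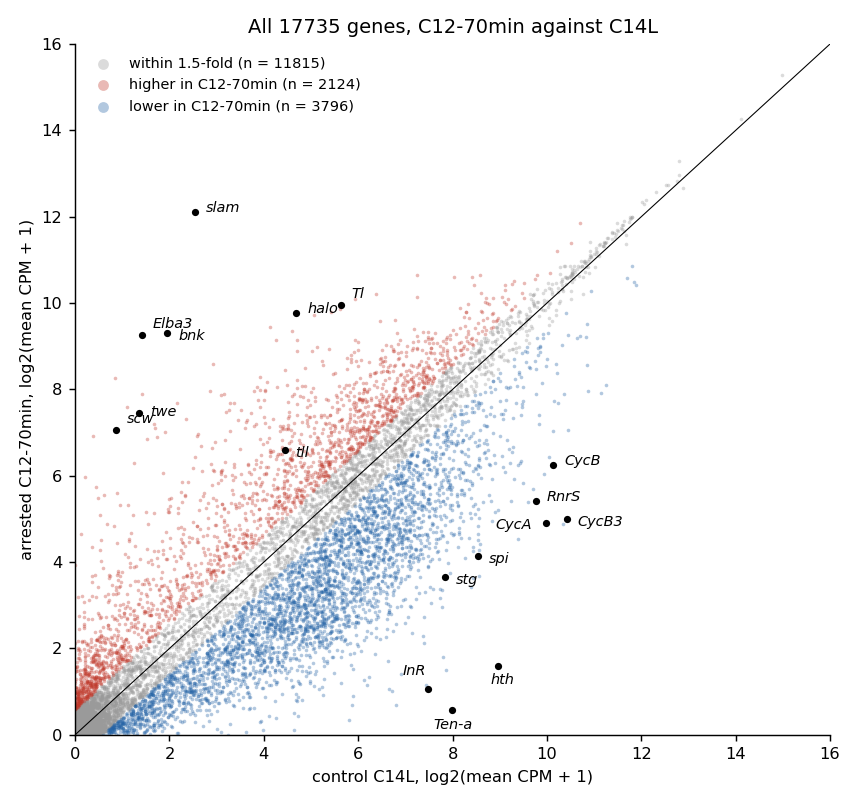
Each point is 1 of 17735 genes, with the log2(mean CPM + 1) of control C14L on the x axis and of arrested C12-70min on the y axis; the line marks equal values. The 2124 genes higher than 1.5-fold in C12-70min are red and the 3796 lower ones blue, and slam, at 4.86 CPM in C14L and 4419 CPM in C12-70min, lies farthest above the line.

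The genes that differed took different courses through the series. The 5912 genes were divided by direction and by their level in control C12, at 10 CPM. The 1319 higher genes that were already at 10 CPM or more in control C12 had medians of 128 CPM in control C12, 103 CPM in C14E and 39 CPM in C14L. In the arrested embryos their median was 150.4 CPM at C12-50min, and 119.9 CPM was left at C12-70min. This group thus stayed near its starting level under arrest and was lower in the late control.

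The 2080 lower genes that were at 10 CPM or more in control C12 dipped and came back in the controls, with medians of 64.3 CPM in control C12, 28.1 CPM in C14E and 64.2 CPM in C14L. Under arrest their median had dropped to 20.9 CPM by C12-30min, stood at 15.1 CPM in C12-50min, and was 17.2 CPM in C12-70min. The 771 lower genes that started under 10 CPM had a median of 30.5 CPM in C14L and 5.21 CPM in C12-70min. Their median in C14E was 7.84 CPM. The smallest group, 85 genes, started under 10 CPM and was higher under arrest, with a median of 18.9 CPM against 6.33 CPM in C14L. The groups were defined with the C12-70min and C14L values, so these 2 values describe the groups and test nothing.

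**Figure D2:**
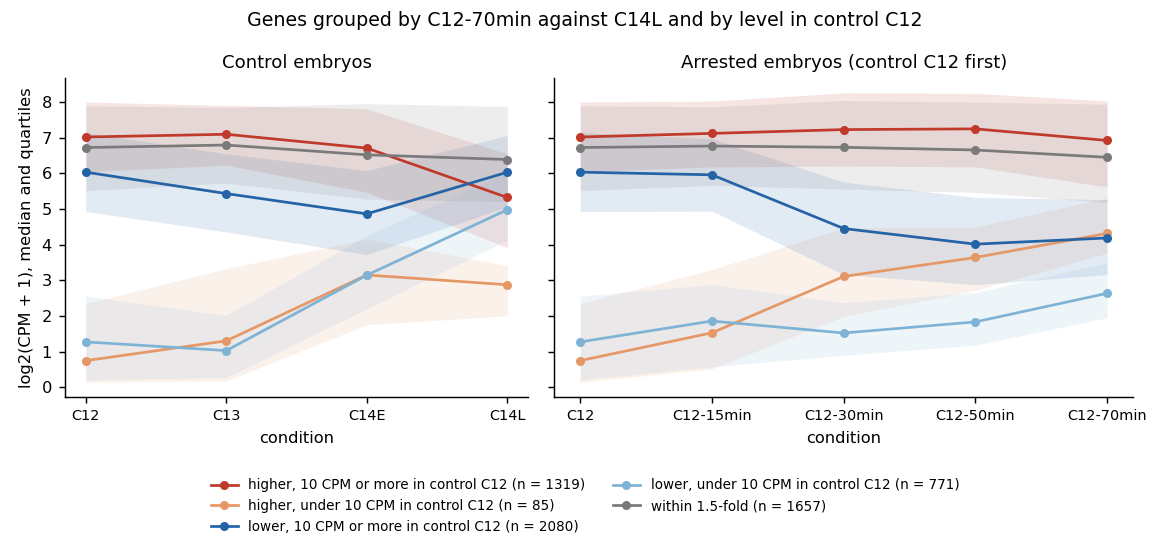
Lines give the median log2(CPM + 1), and bands the quartiles, of 5 groups of genes in the 4 control conditions (left) and in control C12 followed by the 4 arrested conditions (right). The 2080 lower genes present in control C12 (dark blue) dip at C14E and return at C14L, and have a median of 17.2 CPM at C12-70min.

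The targets of the RNA interference were low in the arrested embryos. CycA, CycB and CycB3 are the mitotic cyclins that activate Cdk1. CycA was at 1008 CPM in C14L and at 22.6 and 35.1 CPM in the C12-70min embryos. CycB3 was at 1369 CPM in C14L and at 30.5 and 31.7 CPM in the C12-70min embryos. CycB was at 1124 CPM in C14L and 75.6 CPM in C12-70min, where its embryos lay within 17.8 to 133 CPM. The differences were -5.08, -5.42 and -3.88. Their kinase partner Cdk1, which was not targeted, was at 384 CPM in C14L and 398 CPM under arrest.

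Early zygotic genes that act in cellularisation were higher in the arrested embryos. slam, bnk and nullo were nearly gone from the late cycle 14 controls, whereas halo, Z600 and CG14427 were still present there. All 6 members of this list that had reads were past 1.5-fold and higher, against 23.7% of all genes at 10 CPM or more. Sry-alpha and Sry-beta were listed at 0 in every condition. Whether these zeros reflect absence or the counting of reads was not tested. The largest difference of the comparison was that of slam (FBgn0043854, chromosome 2L, 6372388 to 6377284), which is required for membrane invagination between nuclei. It was at 441 CPM in control C12, 6112 CPM in C14E and 4.86 CPM in C14L, whereas C12-50min had 2863 CPM and C12-70min had 4419 CPM, a difference of 9.56. Its C14L embryos were at 5.06 and 4.65 CPM, and its C12-70min value was too high for single embryos to be solved.

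The actin regulator gene bnk, which times the constriction of the cellularisation front, was at 2.81 and 2.95 CPM in the C14L embryos and within 431 to 829 CPM in the C12-70min embryos, a difference of 7.35. halo, which acts on lipid droplet transport, was at 25.9 and 23.7 CPM in C14L and within 607 to 1123 CPM in C12-70min. nullo, which acts at the basal junctions of forming cells, was at 0.185 and 0.528 CPM in C14L and 35.6 and 69.5 CPM in C12-70min (limma difference 5.24, SE 0.35, adjusted p = 3.61e-05). For bnk, halo and nullo the lowest value of an arrested embryo was above the highest control embryo, as for 19.6% of all 17530 solved genes. The choice of genes with a large difference between the same embryos favours that outcome. Their course also set them apart, since nullo was at 14 CPM in C14E already, whereas bnk was at 615 and halo at 1111 CPM. Z600, an inhibitor of mitotic Cdk1, was within 36.9 to 197 CPM in C12-70min against 8.11 and 24.4 CPM in C14L, and CG14427 at 81.1 and 62.5 against 36.4 and 51.5 CPM (adjusted p = 0.037).

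The other genes among the 12 with the largest positive difference were of 2 courses. Elba3, part of an insulator-binding complex of the early embryo, was at 76.5 CPM in control C12 and 448 CPM in C14E, then at 1.77 and 1.54 CPM in the C14L embryos, against 458 to 763 CPM in C12-70min (difference 7.85). CG15382, CG43725 and CG43184 likewise had a higher level in C14E than in control C12 and were then at 0.785, 1.15 and 3.45 CPM in C14L, against 306, 193 and 205 CPM in C12-70min. CG15382 shares about 30% of its exon bases with another gene, and the strand of the counting is not given in the sources used here. scw, a BMP ligand that patterns the dorsal side, was at 233 CPM in C13, 0.758 and 0.911 CPM in the C14L embryos and 54.2 to 209.6 CPM in C12-70min (difference 6.18).

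The remaining ones were at more than 100 CPM in control C12 and had lost nearly all of it by C14L. twe, the maternally supplied Cdc25 phosphatase Twine, was at 289.7 CPM in control C12, 1.33 and 1.8 CPM in the C14L embryos and 79.8 to 271 CPM in C12-70min (difference 6.10). Fhos, a formin of the actin cytoskeleton, was at 168 CPM in control C12, 0.222 and 0.0959 CPM in C14L and 53.7 and 70.1 CPM in C12-70min (limma difference 5.75, SE 0.26, adjusted p = 2.42e-05). Edc3, an mRNA decapping cofactor, was at 7.21 and 5.92 CPM in C14L and 188 to 574 CPM in C12-70min. mol was at 0.307 and 119.8 CPM and CG5789 at 1.66 and 237 CPM in C14L and C12-70min. In all of these the arrested embryos lay above the controls in every whole-read solution. Their choice by the difference between the means of the same embryos favours that outcome, which 19.6% of all 17530 solved genes shared.

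The genes with the largest negative difference were nearly absent from the arrested embryos. Ten-a, a teneurin cell-surface protein used in neural wiring, was at 351 and 154 CPM in the C14L embryos and 0.663 and 0.332 CPM in the C12-70min embryos (difference -7.40, adjusted p = 3.10e-05). hth, the homeodomain cofactor of Hox proteins, was at 498 CPM in C14L and 1.72 and 2.28 CPM in C12-70min (difference -7.38). InR, the insulin receptor, was at 29.1 CPM in control C12, 200.3 and 153 CPM in C14L and 1.14 and 1.02 CPM in C12-70min (difference -6.42, adjusted p = 2.09e-05). CadN, the neural cadherin, was at 354 and 111 CPM in C14L and 0.455 and 3.17 CPM under arrest and differed about 3-fold between its control embryos.

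The rest of the 12 had various known roles. ush and pnr, partners in dorsal ectoderm and heart specification, were at 212 and 232 and 107 and 130.2 CPM in the C14L embryos and at 2.48 and 2.5 and 1.63 and 1.68 CPM in C12-70min. tin, the heart and visceral mesoderm homeobox gene, was at 134 and 74.1 CPM in C14L and 1.48 and 0.532 CPM under arrest. ths, an FGF ligand, was at 214 and 129 CPM in C14L and 1.14 and 1.33 CPM under arrest, and mid, a T-box gene of segment patterning, at 120.4 and 102 CPM in C14L and 0.833 and 0.377 CPM under arrest. grn, a GATA factor, was at 54.2 and 56.1 CPM in C14L and 0.341 and 0.177 CPM under arrest, and the splicing regulator ps at 104 and 96.2 CPM in C14L and 1.57 and 0.576 CPM under arrest. dan was unlike these in being present under arrest, at 24.2 and 33.2 CPM against 1302 CPM in C14L. The C14L and C12-70min embryos did not overlap for any of the 11 of these 12 genes other than dan, whose C14L embryos were not solved. These genes had been picked by the difference between the means of the same embryos, which favours that outcome. Over all 17530 genes solved, 28% had both arrested embryos below both controls.

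**Figure D3:**
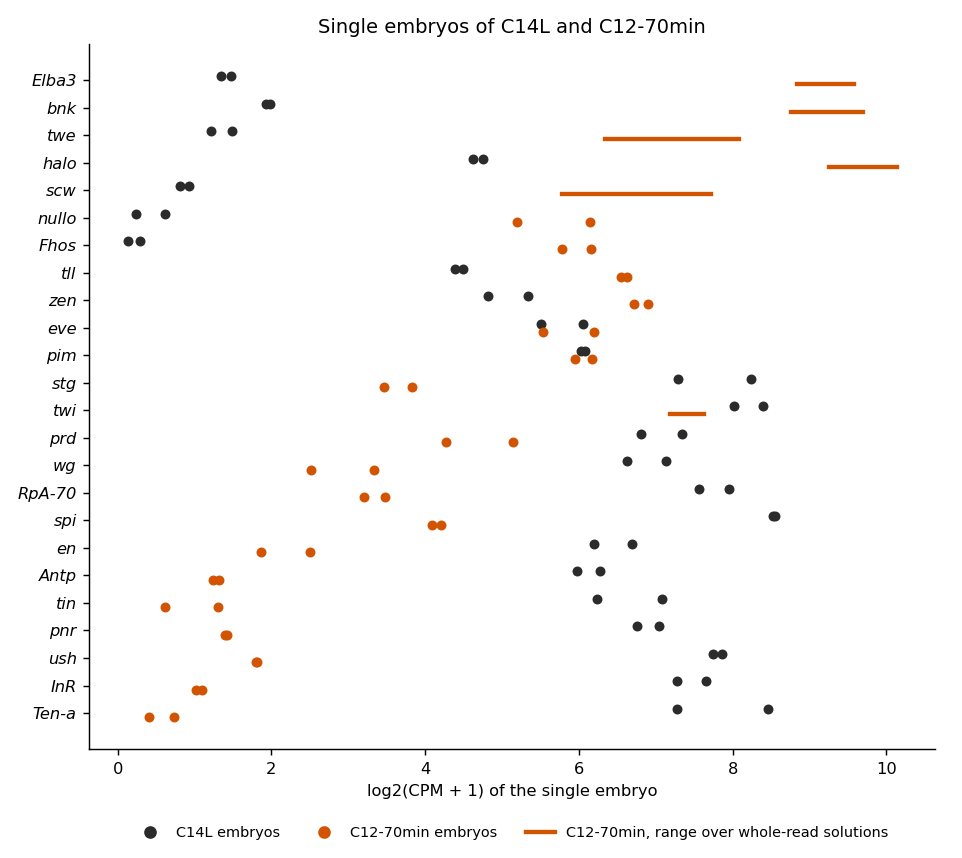
Dots are single embryos of C14L (black) and C12-70min (orange) for 24 genes on a log2(CPM + 1) axis, and an orange bar spans all whole-read solutions where several remained. Embryos of the conditions are apart from Elba3 to zen and from stg to Ten-a, and overlap for eve and pim.

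Segmentation genes differed by class, in an account with no test between the classes. Against the 23.7% and 48.2% of genes reaching 10 CPM that were higher and lower, 5 of 10 gap genes were higher and 2 lower. None of 9 pair-rule genes was higher and 7 were lower, as were 9 of 12 segment polarity genes and 7 of 8 Hox genes. The medians were 0.62, -1.72, -3.06 and -3.20 in that order for the 10, 9, 10 and 6 members that reached 10 CPM, against -0.48 over all such genes. Segment polarity and Hox genes started low, with medians of 0.164 and 0.00862 CPM in control C12. Of the genes at 10 CPM or more that were under 10 CPM in control C12, 79.1% to 85.7% were lower, by bins of gene span. The limma test called 2 higher and 2 lower of 7 gap genes fitted, 6 lower of 8 pair-rule genes, 7 of 9 segment polarity genes and 7 of 7 Hox genes, and no member of the last 3 lists higher.

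Gap genes subdivide the embryo into broad domains. tll, which specifies both termini, was at 97.9 and 92.9 CPM in C12-70min and 19.9 and 21.5 CPM in C14L (difference 2.15, adjusted p = 7.14e-05). hb, which specifies anterior domains, was within 130.1 to 387 CPM in C12-70min and at 52.7 and 64.7 CPM in C14L (difference 2.12), and hkb, another terminal gene, at 111 and 69.6 against 46.9 and 48 CPM (adjusted p = 0.0179). kni and Kr, gap genes of the trunk, were within 109 to 179.6 and 103 to 260.4 CPM in C12-70min and at 77.1 and 82.7 and 114 and 89.8 CPM in C14L, and the solutions for Kr overlap its controls. The head gap gene oc was lower, at 28.6 and 13.3 against 52.2 and 48.4 CPM (adjusted p = 0.00922), as was knrl, at 28.3 and 32.7 against 61.7 and 65 CPM. gt, at 49.8 and 91.3 against 52.8 and 52.6 CPM, did not pass the test (adjusted p = 0.315).

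Pair-rule genes are transcribed in stripes at the start of cycle 14 and many are refined later. prd was at 18.2 and 34.2 CPM in C12-70min and 111 and 161 CPM in C14L (difference -2.33, adjusted p = 0.000447), and slp1 at 41.2 and 59.6 CPM under arrest and 263 and 209 CPM in C14L (difference -2.20). ftz was at 22.1 and 66.7 CPM under arrest and 142 and 191 CPM in C14L, with a 3-fold gap between its arrested embryos. opa, which acts late in this cascade, was within 68.5 to 158 CPM in C12-70min and at 359.9 and 391 CPM in C14L. For eve and h no difference passed the test, with 45.5 and 72.4 against 44.4 and 65.3 CPM for eve (adjusted p = 0.796) and 35.8 and 66.2 against 63.7 and 69 CPM for h (adjusted p = 0.221). Both of these were higher in C14E, at 139 and 172 CPM, than in either condition compared.

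Segment polarity genes fix the boundaries of parasegments. en, the Engrailed homeobox gene, was at 0.872 CPM in C14E, 102 and 72.2 CPM in the C14L embryos and 4.64 and 2.66 CPM in C12-70min (difference -4.25, adjusted p = 3.61e-05). wg, a Wnt ligand, was at 139 and 97.8 CPM in C14L and 4.7 and 9.06 CPM under arrest, and hh, the Hedgehog ligand, at 50.7 and 36.8 CPM in C14L and 1.78 and 1.64 CPM under arrest. ptc, the Hedgehog receptor gene, was at 723 CPM in C14L and within 121 to 298 CPM in C12-70min, a smaller difference of -1.78. fj was the one member at 10 CPM or more that was within 1.5-fold, at 23.8 and 55.7 against 37.8 and 23.8 CPM, and the en paralogue inv, the single member that was higher, was at 3.04 CPM in C12-70min and 1.48 CPM in C14L.

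Hox genes assign identity to segments. Antp was at 76.4 and 61.8 CPM in the C14L embryos and 1.36 and 1.48 CPM in C12-70min (difference -4.85), although about 50% of its exon bases overlap other genes. Abd-B was at 39.9 and 37.4 CPM in C14L and 2.27 and 3.77 CPM under arrest, Dfd at 38.1 and 39.3 CPM in C14L and 5.09 and 2.17 CPM under arrest and abd-A at 58.8 and 33.9 CPM in C14L and 6.48 and 4.61 CPM under arrest. The embryos of the conditions did not overlap for any of the 7 lower Hox genes. The choice of genes lower by the same embryos favours that outcome. It was shared by 2737 of the 2823 solved lower genes at 10 CPM or more. The smallest of these differences was that of lab, -1.82, with 6.6 CPM in C14L.

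Mesoderm genes were lower almost as a whole. Of 16 listed, 15 were lower and 1 higher, with a median of -2.50. Among all genes at 10 CPM or more, 48.2% were lower and 23.7% higher. The list had a median of 0.629 CPM in control C12. Of the genes at 10 CPM or more that were under 10 CPM in control C12, 79.1% to 85.7% were lower, by bins of gene span. The limma test called 13 of 14 fitted genes lower, against 50.7% of all genes fitted. The earliest genes of the germ layer differed least. twi, the bHLH factor at the head of mesoderm specification, was within 145 to 197 CPM in C12-70min and at 334 and 258 CPM in C14L (difference -0.79), and sna, its repressor partner, at 68.6 and 93.9 CPM under arrest and 153 and 193 CPM in C14L (difference -1.08, adjusted p = 0.00553). Genes that act after them differed more. Mef2, a muscle transcription factor, was at 93.1 CPM in control C12, 1.77 CPM in C14E, 112 and 52.7 CPM in the C14L embryos and 4.85 and 2.81 CPM in C12-70min. zfh1 was at 212 and 122 CPM in C14L and 7.99 and 3.19 CPM under arrest, and htl, the FGF receptor gene, at 79.2 and 82.2 CPM in C14L and 11.2 and 16.7 CPM under arrest. The exception was Tl, the Toll receptor gene supplied by the mother, at 894 CPM in control C12, 50.5 and 46.1 CPM in C14L and within 701 to 1277 CPM in C12-70min (difference 4.33).

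Genes of the neuroectoderm and midline were likewise lower in 11 of 13 cases and higher in none. The share lower was 84.6%, against 48.2% of all genes at 10 CPM or more. The list had a median of 0.364 CPM in control C12. Its share lay within the 79.1% to 85.7%, by bins of gene span, of such genes under 10 CPM in control C12. sim, the master gene of the midline, was at 59.6 and 56 CPM in the C14L embryos and 1.25 and 0 CPM in C12-70min (difference -5.18), and spi, an EGF ligand, at 374 and 368 CPM in C14L and 16 and 17.4 CPM under arrest (difference -4.39, adjusted p = 2.42e-05). sog, a BMP antagonist present from C14E on, was at 406 and 272 CPM in C14L and 46.9 and 64.9 CPM under arrest. Egfr, which encodes the receptor of spi, was at 243 CPM in C14L and 183 CPM in C12-70min, and its arrested embryos, within 60.8 to 305 CPM, cannot be set apart from the controls.

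Genes of the dorsal side went in both directions, in shares near those of all genes at 10 CPM or more. Of 18 genes, 10 were lower (55.6%, against 48.2%) and 4 higher (22.2%, against 23.7%). The 4 higher ones were scw, tld, zen and tsg, early genes of BMP signalling on the dorsal side and of its response. tld, the protease that frees BMP ligands, was within 212 to 404 CPM in C12-70min and at 64.6 and 64.6 CPM in C14L. zen, the homeobox gene of the amnioserosa, was at 104 and 118 CPM under arrest and 27.2 and 39.5 CPM in C14L (difference 1.71, adjusted p = 0.000471). tsg, at 30.3 and 51.6 CPM under arrest and 17.7 and 28.5 CPM in C14L, did not pass the test (adjusted p = 0.0601). Among genes of the dorsal tissues that follow, C15 was at 15.8 and 31.9 CPM in C14L and 0 and 0.177 CPM in C12-70min, Doc2 at 61.8 and 82.4 CPM in C14L and 3.77 and 4.76 CPM under arrest, and peb at 70.5 and 82.6 CPM in C14L and 6.38 and 4.34 CPM under arrest. The ligand gene dpp, at 12.1 and 33.1 against 37.6 and 31 CPM, did not pass the test (adjusted p = 0.148).

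Of 10 genes of gastrulation and germband extension, 8 were lower (80%) and 1 higher (10%). Among all genes at 10 CPM or more, the shares were 48.2% and 23.7%. Toll-6, a receptor used in cell intercalation, was at 296 and 125 CPM in the C14L embryos and 5.45 and 13.2 CPM in C12-70min. T48 and fog, which direct apical constriction, were at 49.5 and 37.2 and 52.7 and 42.4 CPM in C14L and at 2.5 and 9.3 and 18.9 and 18 CPM in C12-70min. cta, the maternal G alpha protein that acts downstream of fog, went the other way, within 92.7 to 188 CPM in C12-70min and at 21.9 and 18.8 CPM in C14L. Traf4 was at 284 CPM under arrest and 358 CPM in C14L, within 1.5-fold.

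**Figure D4:**
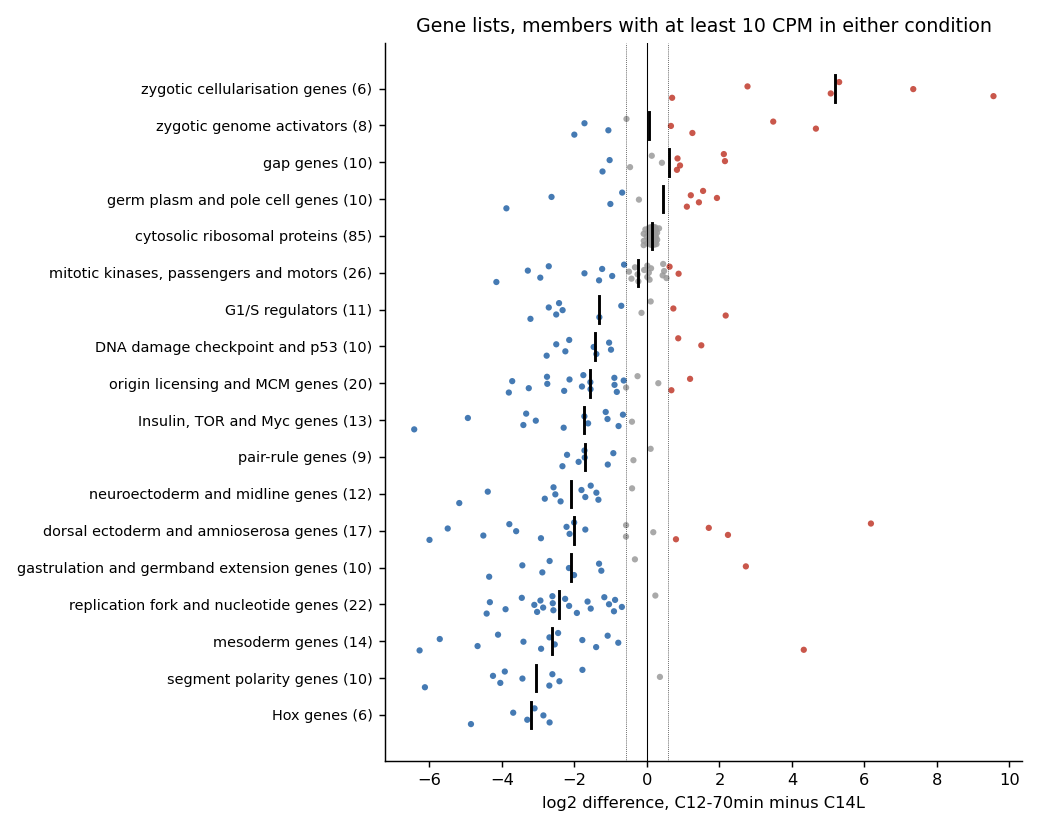
Each point is a gene that reached 10 CPM in 1 or both conditions, placed by its log2 difference of C12-70min minus C14L, in 18 lists; the number of genes is in brackets, bars are medians and dotted lines mark 1.5-fold. All 6 cellularisation genes lie to the right of the 1.5-fold line and all 6 Hox genes shown lie to the left of it.

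Several Notch target genes differed more between the arrested embryos than between the conditions. None of the 10 genes of the Enhancer of split complex that were fitted passed the test in either direction. Of all genes fitted, 16.9% were called higher and 50.7% lower. By fold, 5 of the 11 genes of the complex were higher and 3 lower. These shares were 45.5% and 27.3%, against 23.7% and 48.2% of all genes at 10 CPM or more. E(spl)m7-HLH was at 111 and 10.4 CPM in the C12-70min embryos and 49 and 33.7 CPM in the C14L embryos. E(spl)malpha-BFM was at 87.8 and 6.42 CPM under arrest and 24.3 and 18.2 CPM in the control, and E(spl)m4-BFM at 232 and 31.3 CPM under arrest and 87.6 and 51.6 CPM in C14L. For these and for E(spl)m5-HLH, at 43.6 and 7.62 CPM, the deeper arrested embryo was the higher, and the other was below both controls. Without the deeper embryo the difference of E(spl)malpha-BFM turned from 1.11 to -1.58. Of 8 genes of the Bearded family, which include the BFM members of this complex, 6 were lower by fold (75%) and 2 higher (25%). Of 7 fitted, limma called 2 lower and none higher, against 50.7% and 16.9% of all genes fitted. The 2 called were Brd and BobA. Brd was at 8.47 and 30.1 against 139.9 and 135 CPM (adjusted p = 0.000961). BobA was at 28.2 and 59.4 against 217 and 253 CPM (adjusted p = 0.000431).

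Genes of neural and organ fate went in both directions. nerfin-1, a zinc finger gene of neuroblasts, was at 49.6 and 28.1 CPM in C12-70min and 2.03 and 0.288 CPM in C14L (difference 4.21, adjusted p = 0.000119), and the proneural gene sc at 25.7 and 18.8 CPM under arrest and 4.73 and 2.69 CPM in C14L (adjusted p = 0.000337). The neuroblast genes insc and SoxN were lower, with insc at 2.16 and 2.7 CPM under arrest and 26.7 and 18.6 CPM in C14L and SoxN at 109 and 68.2 CPM against 466 CPM in C14L. mira, which encodes an adaptor of asymmetric division, was within 241 to 585 CPM against 1017 CPM. trh, the tracheal and salivary duct gene, was at 19.4 and 15.1 CPM in C12-70min and 0.573 and 1.61 CPM in C14L (difference 3.13, adjusted p = 0.000111), whereas fkh, a gene of gut and salivary gland, was at 56.7 and 56.4 CPM under arrest and 122 and 128 CPM in C14L (difference -1.13). cad, the maternal and zygotic posterior homeobox gene, was within 76.8 to 205 CPM against 17 and 21.5 CPM.

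Regulators of entry into mitosis differed in both directions. stg, the Cdc25 phosphatase that drives mitosis 14, was at 341 CPM in control C12 and 4.74 CPM in C14E, then at 299.9 and 156 CPM in the C14L embryos. In the C12-70min embryos it was at 13.2 and 10.1 CPM (difference -4.18, adjusted p = 4.44e-05). Its maternal counterpart twe was higher under arrest, as given above. Wee1, a Cdk1 inhibitory kinase gene, was at 49.5 and 64.2 CPM under arrest and 36.8 and 30.1 CPM in C14L (adjusted p = 0.0209), whereas trbl, whose product promotes Cdc25 loss, at 198 CPM under arrest and 167 CPM in C14L, and the Cdk inhibitor gene dap, at 8.98 and 12.5 CPM under arrest and 7.17 and 13.8 CPM in C14L, were within 1.5-fold.

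Genes of DNA replication were mostly lower. Of 24 replication fork and nucleotide genes, 21 were lower (87.5%) and 1 higher, with a median of -2.20. Among all genes at 10 CPM or more, 48.2% were lower. The limma test called 19 of 20 lower, against 50.7% of all genes fitted. RpA-70, the single-strand DNA-binding protein gene, was at 139.8 CPM in control C12, 20.2 CPM in C14E, 246 and 188 CPM in the C14L embryos and 10.1 and 8.22 CPM in C12-70min (difference -4.42). RnrS, a subunit of ribonucleotide reductase, was at 865 CPM in C14L and 49.1 and 34.9 CPM in C12-70min (difference -4.33), and its partner RnrL at 115 and 86.7 CPM in C14L and 43.1 and 63.6 CPM under arrest (difference -0.91). DNApol-alpha73 was at 173 and 132 CPM in C14L and 13.1 and 12.9 CPM under arrest. Of 21 origin licensing genes, 15 were lower (71.4%, against the same 48.2%) and 2 higher. Orc2 was at 111 and 87.5 CPM in C14L and 7.01 and 5.27 CPM in C12-70min, and Mcm2, of the replicative helicase, at 437 and 359 CPM in C14L and 37.5 and 43.9 CPM under arrest. The loading factor gene Cdc6 was higher, within 259.8 to 532 against 182 and 165 CPM, and geminin, which restrains licensing, was within 1.5-fold at 269.8 CPM under arrest and 217 CPM in C14L.

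Among G1/S regulators, 7 of 11 were lower (63.6%, against 48.2% of all genes at 10 CPM or more). E2f2 was at 161 and 149 CPM in C14L and 14 and 17.7 CPM in C12-70min. The retinoblastoma gene Rbf was at 136 and 105 CPM in C14L and 15.1 and 25.8 CPM under arrest. Cdk4 was higher, at 92.3 and 81.1 against 17.7 and 19.2 CPM (adjusted p = 7.64e-05), while its partner CycD, at 19.9 and 50.7 against 23.4 and 18.5 CPM, did not pass the test (adjusted p = 0.214). Mitotic genes other than the targeted cyclins were for the most part close, with 15 of 26 within 1.5-fold and a median of -0.25. Of all genes at 10 CPM or more, 28.0% were within 1.5-fold, and their median was -0.48. Of the 26 mitotic genes, 34.6% were lower and 7.7% higher, against 48.2% and 23.7% of all genes at 10 CPM or more. polo was at 1164 CPM under arrest and 838 CPM in C14L, and pim, the securin gene, at 70.9 and 60.9 CPM under arrest and 66.6 and 64.3 CPM in C14L. The largest of the 9 lower members was fzr, the Cdh1-type activator of the APC that ends cyclin stability in G1, at 159.7 and 115 CPM in C14L and 7.93 and 5.6 CPM in C12-70min (difference -4.15, adjusted p = 3.35e-05). The APC subunit genes ida, Cdc27 and Cdc23 had differences of -3.29, -2.94 and -0.96, while Cdc16 of the same complex was within 1.5-fold at 228 CPM under arrest and 157 CPM in C14L. Of 11 DNA damage genes, 8 were lower (72.7%, against 48.2%) and 3 higher (27.3%, against 23.7%). Among the lower ones, the ATR kinase gene mei-41 was at 43.8 and 33.1 CPM in C14L and 6.67 and 2.92 CPM under arrest. The Chk1 gene grp was at 122 and 105 CPM in C14L and 59.4 and 49.7 CPM under arrest.

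Genes of insulin signalling and growth were lower in 13 of 15 cases (86.7%, against 48.2% of all genes at 10 CPM or more). The limma test called 12 of 15 lower, against 50.7% of all genes fitted, and 1 higher. Next to InR, Myc was at 38 CPM in control C12, 118 and 79.3 CPM in the C14L embryos and 2.71 and 1.79 CPM in C12-70min (difference -4.94), with about 61% of its exon bases in overlap with other genes. Below the receptor, the kinase genes Akt1 and S6k were at 191 and 171 and 254 and 214 CPM in C14L and at 18.6 and 22.8 and 16.5 and 25.8 CPM in C12-70min. Tor was at 133 and 110.1 CPM in C14L and 35.3 and 42.3 CPM under arrest. Cytosolic ribosomal protein genes were close, with 0 of 93 past 1.5-fold in either direction, a range of -0.40 to 0.46 and a median of 0.14. Of all genes at 10 CPM or more, 28.0% were within 1.5-fold. Of 73 mitochondrial ribosomal protein genes, 31 were lower (42.5%) and 8 higher (11%), below the 48.2% and 23.7% over all genes at 10 CPM or more. The centromeric histone gene cid was at 47.1 and 38.9 CPM in C14L and 3.3 and 4.08 CPM in C12-70min, and the embryonic linker histone gene BigH1 at 38 and 49.5 CPM in C14L and 109 and 102 CPM under arrest (adjusted p = 0.00145).

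The maternal RNA list as a group had a median difference near 0, while many single genes differed in either direction. The study's list of maternal transcripts was partly chosen by their decrease in these control embryos, so it is not independent of the C14L values. It held 1223 genes of the table. Their median difference was -0.11, or 0.0014 with the columns centred on the 4313 genes above. By fold 359 genes were higher (29.4%) and 425 lower (34.8%), against 12% and 21.4% of all genes. The shares were 23.7% and 48.2% of all genes at 10 CPM or more, a level that 785 of the list reached. Those 785 had a median difference of -0.41, against -0.48 over all genes at that level. The limma test called 292 higher and 376 lower of 1104 fitted. Of all genes fitted it called 16.9% higher and 50.7% lower. Of the 1143 genes at 10 CPM or more in control C12, the median level left was 16.4% of control C12 in C14L and 12.7% in C12-70min, against 21.5% at C12-50min. The tails differed more than the middle. Fewer than 1% of control C12 was left for 69 genes in C14L and for 4 in C12-70min, and more than 50% for 21 and 42 genes.

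Among maternal genes cleared further in C14L, tor, the terminal receptor kinase gene, was at 207 CPM in control C12, 1.88 CPM in C14L and 114 CPM in C12-70min. Rab32 was at 365, 2.33 and 119 CPM in these conditions, and ftz-f1, a nuclear receptor gene, at 237, 0.39 and 43.9 CPM. Other maternal genes were lower under arrest after a return in the controls. wdb, a phosphatase subunit gene, was at 477 CPM in control C12, 61.2 CPM in C14E, 232 CPM in C14L and 32.1 CPM in C12-70min. RYBP, of Polycomb complexes, was at 173, 10.1, 39.1 and 3.58 CPM in the same order.

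Factors that clear maternal RNA were themselves unequal. smg, a repressor that destabilises maternal mRNAs, was at 3069.5 CPM in control C12, 101 and 76.7 CPM in C14L and within 94 to 379 CPM in C12-70min, so its embryos could not be set apart in every solution. pum was within 133 to 321 CPM in C12-70min against 47.9 and 17.7 CPM, and wisp, a poly(A) polymerase gene, at 66 and 69.5 against 18.5 and 22.6 CPM (adjusted p = 0.000261). The deadenylase subunit gene twin was lower, at 16.3 and 31.3 against 160.1 and 128 CPM (adjusted p = 0.000228), and Not1 of the same complex was higher, within 383 to 705 against 141 and 144 CPM. In germ plasm and pole cells, nos was at 133 and 107 CPM in C12-70min and 33.8 and 27.7 CPM in C14L (adjusted p = 0.00019), aub at 53.9 and 104 CPM under arrest and 24.4 and 28.3 CPM in C14L, and tud at 22.2 and 20.5 CPM under arrest and 139 and 137 CPM in C14L. bcd, the maternal anterior determinant, was at 12.3 and 18.2 CPM under arrest and 0.259 and 0.648 CPM in C14L (difference 3.48, adjusted p = 5.97e-05), from 330.4 CPM in control C12.

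**Figure D5:**
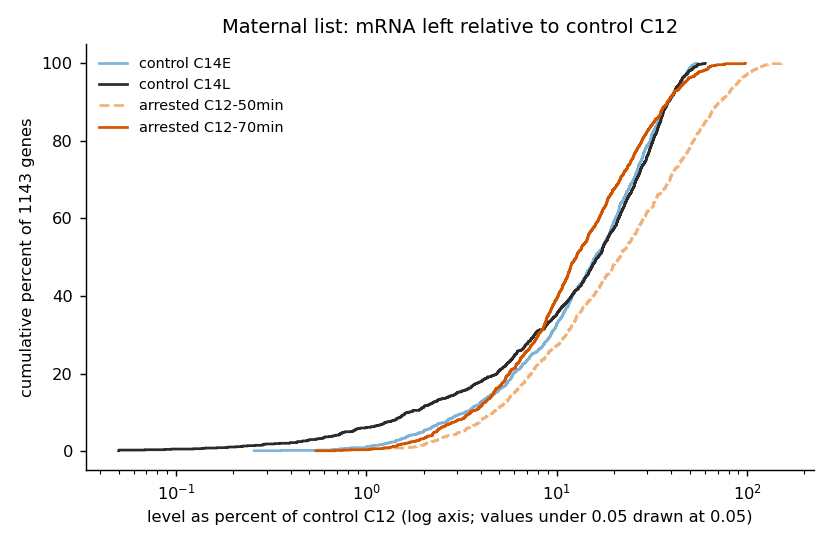
Cumulative percent of 1143 maternal genes (y axis) by the level left as a percent of control C12 (x axis, log scale) in C14E, C14L, C12-50min and C12-70min. The curves for C12-70min and C14L cross, with medians of 12.7% and 16.4%, and 69 genes in C14L against 4 in C12-70min had less than 1% left.

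Regulators of zygotic activation were also unequal. zld, the pioneer factor gene, was at 409 CPM in C14L and 277 CPM in C12-70min, within 1.5-fold. grh, which follows zld as a pioneer factor, was at 276 and 344 CPM in C14L and 71.1 and 82 CPM in C12-70min (difference -2.0, adjusted p = 0.000183), and Bsg25A, of an insulator complex of the blastoderm, at 18.9 and 46.1 CPM in C14L and within 448 to 1244 CPM in C12-70min. The study's lists of genes whose activation had been tied to the nuclear-cytoplasmic ratio (N/C-dependent) or to elapsed time held 80 and 110 genes of the table. Of the N/C-dependent list 59 were lower (73.75%) and 7 higher (8.75%), with a median difference of -1.36. Differences in this list ran from -7.38, that of hth given above, to 2.77. Of the time-dependent list 82 were lower (74.5%) and 3 higher (2.7%), with a median of -1.76. Among all genes at 10 CPM or more, 48.2% were lower and 23.7% higher. Both lists started low, with medians of 0.606 and 0.411 CPM in control C12. Of the genes at 10 CPM or more that were under 10 CPM in control C12, 79.1% to 85.7% were lower, by bins of gene span. The shares lower in both lists were below that range. In both lists the median level in C12-70min, 32.3 and 30.5 CPM, lay between control C13, 1.92 and 0.827 CPM, and C14E, 61.6 and 56 CPM, and C14L was at 80.3 and 109 CPM. The N/C-dependent gene HmgZ, a chromatin protein gene, was at 665 CPM in C14L and 22.3 CPM in C12-70min, whereas upd1, a JAK/STAT ligand gene of the same list, was at 42.3 and 22.8 CPM in C14L and 143 and 109 CPM under arrest (adjusted p = 0.00091). The time-dependent gene Shrm was at 343 CPM in C14L and 18 CPM in C12-70min, and Mabi at 21.9 CPM in C14L and 143 CPM under arrest.

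Genes of sex determination and dosage compensation included both directions. msl-2, the male-specific subunit that assembles the dosage compensation complex, was at 199 and 198 CPM in the C14L embryos and 23 and 42.6 CPM in C12-70min (difference -2.56, adjusted p = 0.00017), and the roX1 RNA of the same complex at 677 CPM in C14L and 326 CPM in C12-70min. Sxl was at 288 CPM in C14L and 548 CPM under arrest, and its arrested embryos may lie anywhere within 33.1 to 1062 CPM. The X-linked sex element upd1 was higher, as given above, and sisA was within 70.5 to 328 CPM against 101 and 62.5 CPM. Sex was not assigned to the embryos, and its part in these values was not tested.

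Because the arrested embryos alone had been injected, genes of RNA interference, wounding, heat shock and immunity were read beside the rest. Of 18 antimicrobial peptide genes and Rel, 1 reached 10 CPM in either condition, Rel itself at 6.76 and 6.11 CPM in C12-70min and 10.7 and 11.4 CPM in C14L. The chaperone gene Hsp68, a member of the maternal list, was at 32.4 CPM in control C12, 5.6 CPM in C12-30min and 26.5 CPM in C12-50min, and its embryos were at 28.7 and 21 CPM in C12-70min and 3.83 and 1.82 CPM in C14L (difference 2.76, adjusted p = 0.000195), whereas Hsp83 was within 73.9 to 150.2 CPM against 475 and 359.8 CPM. Of 20 wound and stress genes, 11 reached 10 CPM. By fold 7 of the 20 were higher (35%) and 4 lower (20%). The shares were 12% and 21.4% over all genes, and 23.7% and 48.2% over all those at 10 CPM or more. The proapoptotic gene skl was at 9.01 and 11.4 against 2.22 and 1.15 CPM (adjusted p = 0.000585). rpr, also proapoptotic, was at 25.5 and 15.5 against 16.2 and 16.7 CPM (adjusted p = 0.417). In the small RNA pathways, r2d2, the partner of Dicer-2, was at 115 and 115 CPM in C12-70min and 48.6 and 53 CPM in C14L (adjusted p = 0.00138), Dcr-2 at 41 and 69.5 CPM under arrest and 35.6 and 23.2 CPM in C14L (adjusted p = 0.0384) and Dcr-1 at 5.64 and 8.68 CPM under arrest and 75.8 and 58 CPM in C14L (adjusted p = 5.74e-05). The part of the injection in these values was not tested.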

How the data were processed

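Polyadenylated RNA of single embryos was sequenced in 8 conditions. The authors trimmed the reads with Trim Galore 0.6.0, aligned them to dm6 with STAR 2.5.3a, ran featureCounts (Subread 1.6.0) on reads with 1 alignment and scaled the counts to CPM with DESeq2. They deposited 1 table of log2 values, each that of a condition's mean CPM plus 1. No other column of per-sample values was found in it (0 columns).

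The difference of the C12-70min and C14L columns was taken for all 17735 genes and called past 1.5-fold. Because a mean over 2 embryos is made of whole reads, both read numbers were solved for from the 9 decimals given below a log2 value of 10, where the smallest steps gave the totals. Higher values carry 8 decimals and were not tried. log2(CPM + 1) of genes with a single solution was tested with limma 3.58.1 (R 4.3.3) with an intensity trend, two-sided, with Benjamini-Hochberg adjustment over 6492 genes. The scripts were tested on simulated data. The test design assumed that such values might be recovered. Genes named are the 3 targets, the 12 largest differences in each direction among genes that reached 10 CPM in 1 or both conditions, and up to 4 members of each list in each direction, with near-equal members as contrast. wdb, RYBP, tor, Rab32, ftz-f1 and the members within 1.5-fold were chosen after their values were seen. The comparison and gene lists were chosen with earlier results of these data known. Positions and exon overlap come from the Ensembl 115 annotation of the same assembly, which held 17630 of the genes. Promoter motifs were not analysed here. 81 N/C-dependent genes were listed, of which 80 were matched. Python 3.11.15, pandas 2.3.3 and matplotlib 3.10.9 were used.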

Additional observations from a re-analysis of the deposited data

How the results depend on the processing

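With 2 embryos in a condition and no replicate number on any column, 1 embryo can decide a value. No paired analysis was possible because the columns carry no replicate numbers. Below a few CPM the pseudocount sets the count of calls, and abundant arrested transcripts lack a test. The cause of the changes below was not tested.

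Genes past 1.5-fold and higher numbered 3769 with a pseudocount of 0.1 and 5028 with 0.001, beside 4886 and 5669 lower. The higher ones numbered 1404 with at least 10 CPM in either condition and 1282 past 2-fold. The limma counts were 662 higher with at least 10 CPM, 593 higher and 2053 lower with no filter, and 2111 higher and 2088 lower with centring on the fitted genes alone, an alternative chosen after seeing the data, as was the test of overlap in every solution. Leaving out 1 embryo gave 633 to 1209 higher and 2533 to 3444 lower calls. Without either C14L embryo the higher calls were fewer, 633 without the deeper and 677 without the other. Under the other alternatives listed for these counts they stayed within 1.5 times.

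The median of the maternal list was -0.11 and became 0.0014 when centred on genes with at least 10 CPM in both conditions, so its sign depends on the centring. On genes with recovered reads it ran from -0.19 to -0.045 with 1 embryo left out, the last without the deeper C14L embryo. The N/C-dependent median was -1.21 with a pseudocount of 5 and -1.25 when centred, and ran from -1.92 to -1.45 with 1 embryo left out. The time-dependent median was -1.81 with a pseudocount of 0.1 and -1.81 with 0.001, -1.56 with 5 and -1.65 when centred, and ran from -2.07 to -1.86 with 1 embryo left out.

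Of 296 comparisons of a list's count with an alternative, 29 moved, mostly in lists with few members past the fold. With a pseudocount of 5 the higher members were 0 for segment polarity, replication fork, insulin and tubulin genes and 2 for the Enhancer of split complex and for heat shock genes, and the lower ones 0 for antimicrobial peptides and 1 for tubulins. With a pseudocount of 0.1 the higher members were 1 for Hox genes, 3 for ecdysteroid synthesis, 8 for heat shock, 1 for antimicrobial peptides, 2 for cytosolic ribosomal proteins and 4 for late differentiation markers, and the lower ones 4 for antimicrobial peptides, 1 for cytosolic ribosomal proteins and 4 for late differentiation markers. With 0.001 these 9 counts were 1, 3, 8, 1, 4, 6, 4, 1 and 5, and 3 mitochondrially encoded genes were higher. Centring gave 1 higher Hox gene and 2 higher ecdysteroid synthesis genes.

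Of the genes named by rule, 4 changed direction between condition means when 1 arrested embryo was left out. The difference ran from -1.58 without the deeper one to 2.0 without the other for E(spl)malpha-BFM, from -1.13 to 1.72 for E(spl)m4-BFM and from -1.60 to 1.45 for E(spl)m8-HLH, and for CycD from 1.24 without the deeper one to -0.067 without the other. In the limma fit centred on the fitted genes alone, wun2 turned to 0.051 and Rel to 0.034. The alternatives of the limma fit left 1457 of 1597 values for named genes on the same side of the threshold, 124 lost the call and 14 gained it.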

Other observations

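Further groups not described above were read in the same way. Ecdysteroid synthesis genes, whose early embryonic transcription precedes the hormone pulse of later development, were mixed. dib was at 9.62 and 12 CPM in C12-70min and 71.4 and 73.3 CPM in C14L (adjusted p = 4.61e-05) and phm at 37.4 and 56.6 CPM under arrest and 152 and 118 CPM in C14L (adjusted p = 0.00145), whereas spo, an earlier step of the pathway, was at 363 CPM under arrest and 404 CPM in C14L, within 1.5-fold, and Cyp18a1, which inactivates the hormone, at 8.45 and 5.78 CPM under arrest and 2.03 and 0.983 CPM in C14L (adjusted p = 0.00228). Of 47 proteasome genes, 13 were higher (27.7%) and 18 lower (38.3%), beside 12% and 21.4% of all genes. Only 32 of the 47 reached 10 CPM in 1 or both conditions. The shares over all genes at that level were 23.7% and 48.2%. The median difference of the 32 was -0.57, against -0.48 over all such genes. Of 12 mitochondrially encoded genes with at least 10 CPM, mt:srRNA alone was past 1.5-fold, at 24.8 and 18.2 CPM under arrest and 4.44 and 10.1 CPM in C14L.

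The difference varied with position and length, given as a description. For genes that reached 10 CPM in 1 or both conditions the median was -0.24 for 960 genes of the X chromosome, between -0.43 and -0.59 on the 4 large autosome arms, and 0.20 for 51 genes of chromosome 4. By gene span in the annotation it was -0.18 for 1969 genes under 2 kb and -1.25 for 333 genes of 20 to 50 kb, and it was -0.80 for 138 genes above 50 kb. Of these, the 103 at 10 CPM or more in control C12 had a median of 0.063, with 45 higher and 42 lower. Among the genes under 10 CPM in control C12 the medians of the bins below 50 kb lay between -1.55 and -2.20 with no order, and the 35 genes above 50 kb had a median of -3.49, with 30 of them lower. These long genes include Ten-a, which spans 291517 bases, hth with 132008 bases and CadN with 131288 bases.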
